A study of Mus musculus with 4 samples.

Results

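The insulin and insulin-like growth factor (IGF) signalling genes described here are 10 genes chosen by name: the ligands *Igf1* and *Igf2*, the receptors *Igf1r*, *Igf2r* and *Insr*, the receptor substrates *Irs1* and *Irs2*, and the binding proteins *Igfbp2*, *Igfbp4* and *Igfbp5*. All 10 were among the 56748 genes of the deposited table, and the rule itself names genes and uses no measured value, although it was set with earlier results of these data known. RNA was sequenced from whole lenses of mice aged 10 to 12 days, with 2 libraries of the labelled genotype *Fsp1-cre;Pdgfrb*+/D849V (mutant) and 2 labelled *Fsp1-cre;Pdgfrb*+/+ (control), each a pool of lenses from several FVB/N mice. D849V is a knock-in change that makes the receptor PDGFRβ hyperactive once *Fsp1-cre*, a transgene driven by the promoter of *S100a4*, has recombined the allele. Neither allele is specific to the lens, the line also carries a *Rosa-LSL-tdTomato* reporter, and the youngest lenses in which the study described reporter signal were older than those sequenced. According to the study's methods the control pools also held lenses of *Pdgfrb*+/+ and *Pdgfrb*+/D849V mice without cre, which the labels do not show.

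IGF1 and IGF2 are secreted hormones that, with insulin, act through the receptor tyrosine kinases IGF1R and INSR. These receptors phosphorylate the adaptors IRS1 and IRS2, which recruit PI3-kinase and so activate Akt. IGF2R binds IGF2 and delivers it to lysosomes, and the IGF binding proteins hold the ligands outside the cell. In the lens, insulin and IGFs reach the cells in the aqueous and vitreous humor and are known to promote fiber differentiation and epithelial survival. Because the study examined STAT5 and IGF1 in older, cataractous lenses, the question here is how the genes of this pathway stood in young lenses before opacity.

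Whole reads could be recovered from the FPKM (fragments scaled to gene length and to a size term per library). There were between 18561682 and 18878768 reads per library, of which 58.6% to 62.9% lay on crystallin genes. The lens identity of the libraries was clear in 8 of the 9 fiber markers and all 6 epithelial markers examined, such as *Foxe3* at 103 to 122 FPKM, whereas the fiber gene *Lim2* was listed at 0 in every library. *Pdgfrb* itself had 2.36 and 2.16 FPKM in mutant and 2.25 and 1.79 FPKM in control replicates 1 and 2, and gene-level values do not separate the mutant allele. *Xist*, transcribed from the inactive X of females, was higher in mutant replicate 2 and control replicate 1 (13.1 and 15.6 FPKM) than in mutant replicate 1 and control replicate 2 (7.62 and 5.56 FPKM). *Xist* thus split the libraries across the genotypes, and values within each *Xist* pair are given where they bear on a gene. Crystallin genes held 58.6% and 59.0% of reads in mutant replicate 2 and control replicate 1. In mutant replicate 1 and control replicate 2 they held 62.9% and 61.5%, so the *Xist* pairs also differed in crystallin share. The Y-linked gene *Eif2s3y* had 7.10 and 4.82 FPKM in mutant and 3.02 and 7.13 FPKM in control replicates 1 and 2. Which of these differences goes with the level of a gene was not tested.

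**Figure D1:**
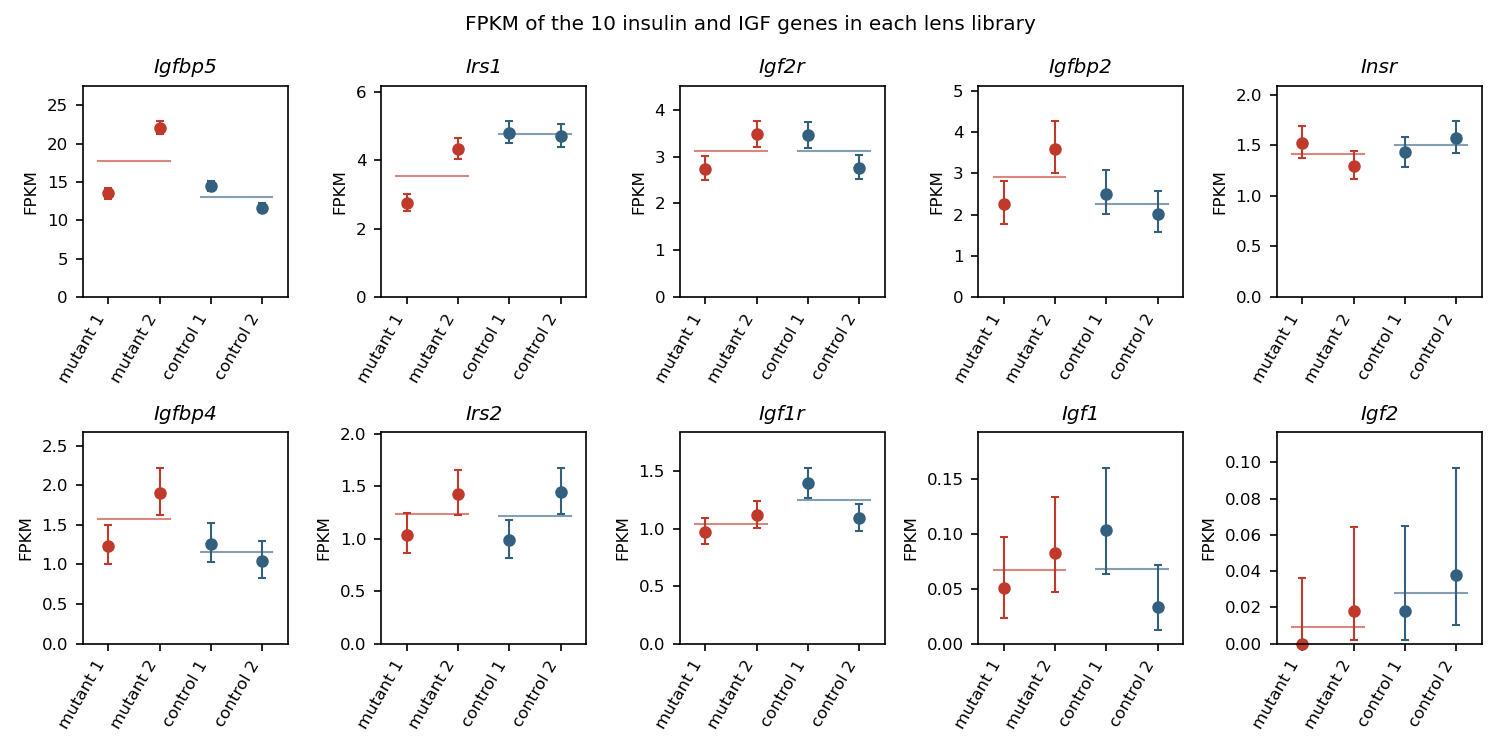
FPKM (vertical axes, each from 0) of the 10 insulin and IGF genes in the 2 mutant (red) and 2 control (blue) lens libraries, in order of mean level. Points are libraries, error bars are exact Poisson 95% intervals of the recovered reads and horizontal lines are group means. *Igfbp5* stood highest with 11.7 to 22.0 FPKM, and *Igf1* and *Igf2* rested on at most 20 reads.

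The order of the mean FPKM over the 4 libraries was *Igfbp5* (15.4 ± 4.57, SD, n = 4), *Irs1* (4.16 ± 0.959), *Igf2r* (3.11 ± 0.411), *Igfbp2* (2.59 ± 0.696), *Insr* (1.46 ± 0.123), *Igfbp4* (1.36 ± 0.377), *Irs2* (1.22 ± 0.246), *Igf1r* (1.15 ± 0.179), *Igf1* (0.0676 ± 0.0317) and *Igf2* (0.0184 ± 0.0155). Only 3 steps in this order separated neighbors whose ranges did not overlap: *Igfbp5* above *Irs1*, *Igfbp2* above *Insr*, and *Igf1r* above *Igf1*. The plot of FPKM by library shows this as 1 abundant binding protein, a group of receptors, substrates and binding proteins at low levels, and ligands near the limit of detection. *Igfbp5* made up between 44.1% and 56.1% of the summed FPKM of the 10 genes.

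Between the genotypes, none of the 8 genes with enough expression to be tested had an adjusted p under 0.05. Of all 15997 genes whose mean FPKM reached 0.1, 6 did (0.0375%), in limma's moderated test on log2(FPKM + 0.1) with Benjamini-Hochberg adjustment. None of the 8 had an unadjusted p under 0.05 either, against 6.31% of all genes tested. With voom, limma's test for counts, on the recovered reads, 0.0875% of all genes and again none of the 8 had an adjusted p under 0.05, while *Irs1* and *Igfbp5* had an unadjusted p of 0.00525 and 0.0127. Of the 8 genes, 4 were higher and 4 lower in mutant lenses, and their median log2 fold change was 0.014 against 0.0041 over all genes tested. In 1 of the 8, *Irs1*, both mutant libraries lay below both control libraries, whereas the groups did not overlap for 36.6% of all genes tested (18.3% with the mutant libraries lower). With 2 libraries per group, an exact permutation test of a single value cannot give a two-sided p below 0.333.

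**Figure D2:**
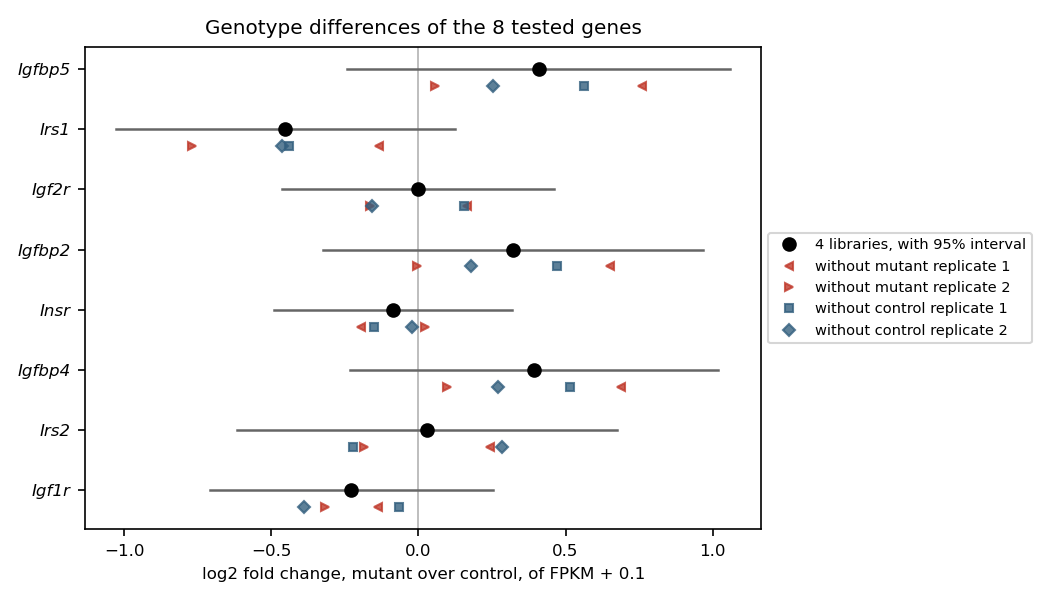
Log2 fold change of FPKM + 0.1 (horizontal axis, mutant over control) for the 8 tested genes, ordered by mean level. Black points with lines are the estimates from the 4 libraries with limma's 95% intervals, and small symbols are the estimates with 1 library left out. Every interval includes 0, and those of *Igfbp5* and *Irs1* reach from -0.24 to 1.06 and from -1.03 to 0.12.

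Few reads were assigned to the ligands in these lenses. *Igf1* (ENSMUSG00000020053, mm39 chromosome 10, 87694127 to 87772904, plus strand), the IGF ligand of postnatal growth, had 9 and 16 reads in mutant replicates 1 and 2 and 20 and 6 reads in control replicates 1 and 2. These reads correspond to 0.0510, 0.0825, 0.104 and 0.0329 FPKM. The highest and the lowest value both came from control libraries, so the control range enclosed the mutant range. Summed within groups, 25 mutant and 26 control reads gave a ratio of 0.974 mutant over control, with an exact 95% interval of 0.539 to 1.75 that covers counting error only. The control libraries themselves lay 3.16-fold apart. *Igf1* fell under the filter of the main test. When it was tested without a filter, its log2 fold change was 0.012 (adjusted p = 1) on log2(FPKM + 0.1) and 0.13 (adjusted p = 0.964) in voom. *Igf1* was higher in both libraries of the high-*Xist* pair, with 36 reads against 15 in the low-*Xist* pair. In the high-*Xist* pair the mutant library held 0.795 times the control FPKM, and in the low-*Xist* pair 1.55 times.

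Since macrophages are a known source of IGF1, their 8 markers were set beside it. Of these 8, 5 had reads in all 4 libraries, and all 8 together had 47 and 60 reads in mutant and 26 and 23 reads in control libraries. The pan-leukocyte gene *Ptprc* had between 0 and 2 reads in a library. In bulk RNA, fewer cells of a type cannot be told apart from less RNA per cell. Only 3 of the 8 macrophage markers were tested, the complement genes *C1qa* and *C1qb* and the lysosomal gene *Cd68*, on 1 to 19 reads per library. Each had an unadjusted p under 0.05 in limma's test, beside 6.31% of all genes tested, and an adjusted p of at least 0.737. Each also had both mutant libraries above both control libraries, as had 18.2% of all genes tested. The order of the macrophage markers across libraries was not that of *Igf1*, and the part of these cells in its level was not tested.

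*Igf2* (ENSMUSG00000048583, mm39 chromosome 7, 142204503 to 142220553, minus strand), the fetal growth ligand, is an imprinted gene that is widely silenced after birth. The mutant libraries held 0 and 2 of its reads and the control libraries 2 and 4. The 0 in mutant replicate 1 allows up to 3 reads, or 0.0294 FPKM, by a one-sided limit that lies below the upper end of the two-sided interval in the plot, so no difference was detectable at this depth (ratio of summed reads 0.338, exact 95% interval 0.0333 to 1.89). *Ins1*, 1 of the insulin genes, had 0 reads in every library, for which the same one-sided limit is 0.159 FPKM or less. The other insulin gene, *Ins2*, had 3 reads in control replicate 1 and none elsewhere. The antisense genes *Igf1os* and *Igf2os*, which overlap the ligand genes, were listed at 0 reads in all libraries. So were the protein-coding gene *Gm49394* and the microRNA gene *Mir483*, which overlap *Igf2* on its own strand. How reads in stretches shared by genes were counted is not given in the sources used here. Whether reads of *Igf2* were lost in this way was not tested.

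The receptors had reads in every library, and none passed the test between genotypes. *Igf1r* (ENSMUSG00000005533, mm39 chromosome 7, 67602575 to 67883416, plus strand), which carries the mitogenic signal of both IGFs, had 0.972 and 1.12 FPKM in mutant replicates 1 and 2 and 1.40 and 1.10 FPKM in control replicates 1 and 2. Control replicate 1 stood above the other libraries, and the groups overlapped. The means were 1.04 ± 0.102 (SD, n = 2) for the mutant and 1.25 ± 0.213 for the control pools, which is a difference of -0.23 on the log2 scale (standard error, SE, 0.19, adjusted p = 0.810) with a 95% interval of 0.612 to 1.19-fold. The mutant library was lower within both *Xist* pairs, at 0.799 and 0.888 times the control FPKM.

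*Insr* (ENSMUSG00000005534, mm39 chromosome 8, 3172061 to 3329617, minus strand), the insulin receptor, was the steadiest of the 8 genes. It had 1.53 and 1.30 FPKM in mutant libraries and 1.43 and 1.57 FPKM in control libraries, a 1.21-fold range. Its log2 fold change was -0.086 (SE 0.16, adjusted p = 0.920), with a 95% interval of 0.712 to 1.25-fold, and it turned to 0.023 without mutant replicate 2. Per length, *Insr* stood above *Igf1r* in all libraries, with *Igf1r* to *Insr* ratios of 0.637 and 0.861 in mutant and 0.977 and 0.696 in control libraries. These ratios overlapped between genotypes (two-sided exact permutation p = 0.667).

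*Igf2r* (ENSMUSG00000023830, mm39 chromosome 17, 12901293 to 12988551, minus strand), the clearance receptor of IGF2, had 2.74 and 3.47 FPKM in mutant libraries and 3.45 and 2.76 FPKM in control libraries. The high and the low value of each group matched almost exactly, so that both group means were 3.11 FPKM (log2 fold change -0.0011, SE 0.18, adjusted p = 0.999). The 2 high values belonged to the high-*Xist* pair, with 633 and 625 reads, and the 2 low values to the low-*Xist* pair, with 455 and 474 reads. The Poisson 95% intervals of the high pair (585 to 684 and 577 to 676 reads) lay above those of the low pair (414 to 499 and 432 to 519 reads). The antisense gene *Airn* overlaps *Igf2r* and had between 53 and 78 reads, and whether the counting used strand is not given in the sources used here. Per length, *Igf2r* was 2.82 and 3.11 times *Igf1r* in mutant and 2.47 and 2.52 times in control libraries, which did not overlap between genotypes (two-sided exact permutation p = 0.333, the smallest this design allows).

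The insulin receptor-related gene *Insrr*, which encodes a further member of this receptor family that senses alkaline pH, had too few reads for the main test. Its reads numbered 10 and 15 in mutant libraries against 2 and 4 in controls, so that both mutant libraries lay above both controls. The same held for 18.2% of all genes tested, and *Insrr* was named after its values were seen. The ratio of summed reads was 4.22 mutant over control, with an exact 95% interval of 1.69 to 12.6 for counting error only.

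Neither substrate passed the test, and only *Irs1* had groups that did not overlap. *Irs1* (ENSMUSG00000055980, mm39 chromosome 1, 82210822 to 82269137, minus strand), a docking protein through which IGF1R and INSR engage PI3-kinase, had 2.75 and 4.34 FPKM in mutant replicates 1 and 2 against 4.81 and 4.73 FPKM in control replicates 1 and 2. The control libraries lay within 1.02-fold of each other, mutant replicate 2 lay just below them, and mutant replicate 1 lay far below all others. In reads, mutant replicate 1 had 449 (Poisson 95% interval 408 to 493) against 777, 856 and 797. The means were 3.55 ± 1.12 (SD, n = 2) and 4.77 ± 0.0607, a difference of -0.45 on the log2 scale (SE 0.23, adjusted p = 0.810) with a 95% interval of 0.490 to 1.09-fold. Mutant replicate 1 decided the size of this difference: without it the log2 fold change was -0.13, and without mutant replicate 2 it was -0.77.

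*Irs2* (ENSMUSG00000038894, mm39 chromosome 8, 11034681 to 11058458, minus strand), the related substrate that FoxO factors are known to induce when insulin signalling is low, had overlapping groups. It had 1.04 and 1.43 FPKM in mutant and 0.984 and 1.44 FPKM in control replicates 1 and 2. Replicate 2 was the higher of the pair in both groups, and the groups overlapped almost completely. The log2 fold change was 0.029 (SE 0.25, adjusted p = 0.987), with a 95% interval of 0.652 to 1.60-fold, and without mutant replicate 2 or control replicate 1 it was -0.18 and -0.22. The *Irs1* to *Irs2* ratio of FPKM was 2.65 and 3.04 in mutant libraries and 4.89 and 3.28 in control libraries. Both mutant ratios lay below both control ratios, at the smallest exact permutation p the design allows (0.333, two-sided), and the gap between mutant replicate 2 and control replicate 2 was small.

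The binding proteins *Igfbp2*, *Igfbp4* and *Igfbp5* followed the same order across the libraries, which was not the order of the genotypes. *Igfbp5* (ENSMUSG00000026185, mm39 chromosome 1, 72897091 to 72914043, minus strand), which binds IGFs in the extracellular matrix, had 13.5 and 22.0 FPKM in mutant replicates 1 and 2 and 14.4 and 11.7 FPKM in control replicates 1 and 2. *Igfbp4* (ENSMUSG00000017493, mm39 chromosome 11, 98932070 to 98945218, plus strand), an inhibitor of IGF action that the protease PAPP-A cleaves, had 1.23 and 1.91 FPKM in mutant libraries and 1.26 and 1.04 FPKM in control libraries. *Igfbp2* (ENSMUSG00000039323, mm39 chromosome 1, 72863662 to 72891633, plus strand), a binding protein of extracellular fluids, had 2.25 and 3.59 FPKM in mutant libraries and 2.51 and 2.03 FPKM in control libraries. In all 3 genes mutant replicate 2 was highest, followed by control replicate 1, mutant replicate 1 and control replicate 2.

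**Figure D3:**
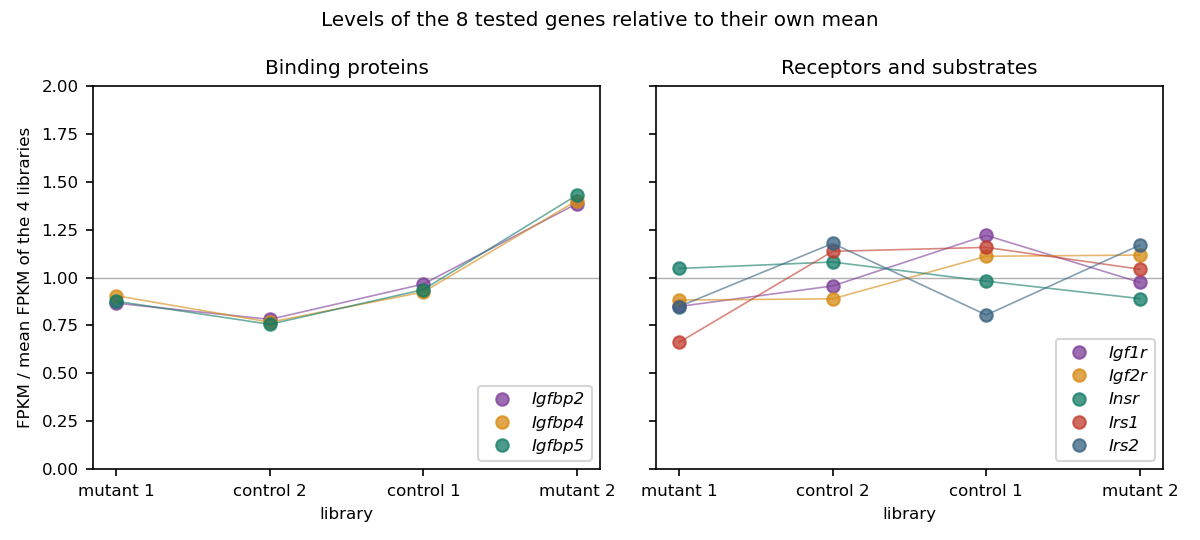
FPKM of each of the 8 tested genes divided by its own mean over the 4 libraries (vertical axis), with the low-*Xist* libraries first and the high-*Xist* libraries last on the horizontal axis. Points are libraries, and lines only join the points of 1 gene. The 3 binding proteins (left) lie almost on top of each other and peak in mutant replicate 2, whereas the receptors and substrates (right) follow no common order.

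The measured ratios among the 3 binding proteins varied little while their levels varied up to 1.89-fold. The *Igfbp5* to *Igfbp4* ratio of FPKM was 10.95 and 11.55 in mutant and 11.49 and 11.16 in control libraries, and its SD was 2.49% of its mean, where counting error alone would give about 9.98%. *Igfbp5* to *Igfbp2* ratios were 6.005 and 6.132 in mutant and 5.764 and 5.749 in control libraries, with an SD of 3.17% of the mean against 11.1% from counting. *Igfbp4* to *Igfbp2* ratios were 0.548 and 0.531 in mutant and 0.502 and 0.515 in control libraries (3.82% against 14.5%). The ratios to *Igfbp2* did not overlap between genotypes (two-sided exact permutation p = 0.333, the smallest this design allows), whereas those of *Igfbp5* to *Igfbp4* did. A spread below counting error shows only that no variation beyond that error was seen. True proportions could differ between libraries by about as much as the counting error. By contrast, the *Irs1* to *Irs2* ratio had an SD of 28.4% of its mean against 9.27% from counting. How often other sets of genes keep their proportions to this degree was not tested. The rise in mutant replicate 2 was itself beyond counting error: *Igfbp5* had 2592 reads there (Poisson 95% interval 2493 to 2694) and 1445 (1371 to 1521) in mutant replicate 1.

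All 3 binding proteins had a higher mean in mutant lenses, by a log2 fold change of 0.41 for *Igfbp5* (SE 0.26), 0.39 for *Igfbp4* (SE 0.25) and 0.32 for *Igfbp2* (SE 0.25). Each had an adjusted p of 0.810, and the 95% intervals were 0.845 to 2.08-fold, 0.850 to 2.03-fold and 0.799 to 1.96-fold. The means of *Igfbp5* were 17.8 ± 6.04 (SD, n = 2) in mutant and 13.1 ± 1.98 FPKM in control lenses, so the difference was smaller than the spread between the mutant libraries. It rested on mutant replicate 2, without which the log2 fold changes were 0.056 for *Igfbp5*, 0.096 for *Igfbp4* and -0.0041 for *Igfbp2*. Within both *Xist* pairs the mutant library was higher for all 3 genes. For *Igfbp5*, *Igfbp4* and *Igfbp2* the ratios were 1.53, 1.52 and 1.43 in the high-*Xist* pair and 1.16, 1.18 and 1.11 in the low-*Xist* pair. Poisson 95% intervals of the reads overlapped in the low-*Xist* pair for *Igfbp4* (79 to 118 and 68 to 105). They overlapped for *Igfbp2* in both pairs, and for *Igfbp5* in neither. Because the 3 genes varied together, they are not separate comparisons. The share of all genes higher in both pairs was not tested. With the *Xist* pair as a covariate, the unadjusted p of *Igfbp5* was 0.0319 and its adjusted p 0.701.

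Summed markers of tissue around the lens also varied between the libraries, and not all in 1 order. Retinal markers, 4 of 7 of which had reads in every library, summed to 1.02 and 3.15 FPKM in mutant replicates 1 and 2 and to 1.49 and 1.17 FPKM in control replicates 1 and 2. Fibroblast and mesenchyme markers summed to 5.49 and 6.97 FPKM in mutant libraries and 6.90 and 6.55 FPKM in control libraries, most of it *Pdgfra*, which the lens epithelium also expresses. Of the 4 of these 8 markers that were tested 3 were higher in mutant lenses, and *Col1a1*, a fibrillar collagen, had 28 and 40 mutant against 6 and 9 control reads. Among them *Lum* was at 0 in every library and *Dcn* in all but mutant replicate 2, which had 4 reads. The retinal and the fibroblast sums were highest in mutant replicate 2 and next in control replicate 1, as were the binding proteins. Control replicate 2 then stood above mutant replicate 1, unlike in the binding proteins. Other lists were lowest in mutant replicate 2, where the binding proteins were highest. Ciliary body, iris and pigment cell markers, 2 of 6 with reads in every library, summed to 0.823 and 0.709 FPKM in mutant and 0.889 and 1.34 FPKM in control replicates 1 and 2. Endothelial markers summed to 9.05 and 5.91 FPKM in mutant replicates 1 and 2 and to 9.03 and 7.43 FPKM in control replicates 1 and 2, with all 7 above 0 in every library. The 5 pericyte markers, also all above 0, summed in the same order to 4.78, 3.99, 6.02 and 5.80 FPKM. Red blood cell genes summed to 25.3, 17.2, 34.9 and 21.6 FPKM, with *Hba-a2* at 0 in every library. The part of such tissue in the levels of the binding proteins was not tested.

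*Igfbp2* and *Igfbp5* are neighbors on chromosome 1, with 5.46 kb between them on opposite strands, and *Igfbp4* lies on another chromosome. Because the 3 genes were all highest in mutant replicate 2, the 250 bases before their annotated starts are shown. They come from RefSeq's GRCm38.p6 (the positions above are mm39). For *Igfbp2* the outermost of the annotated starts was taken. *Igf1* is shown for comparison, as the ligand the study measured in older lenses. Capitals mark the TATA box letters TATAAA and the GC box letters GGGCGG on either strand.

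Igfbp2, chr1:72824230-72824479, plus strand: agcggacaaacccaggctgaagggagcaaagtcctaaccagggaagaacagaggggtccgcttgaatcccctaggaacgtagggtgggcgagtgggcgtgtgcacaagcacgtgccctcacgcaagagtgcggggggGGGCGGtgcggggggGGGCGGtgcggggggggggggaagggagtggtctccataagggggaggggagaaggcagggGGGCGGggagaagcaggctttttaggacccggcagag
Igfbp4, chr11:99040994-99041243, plus strand: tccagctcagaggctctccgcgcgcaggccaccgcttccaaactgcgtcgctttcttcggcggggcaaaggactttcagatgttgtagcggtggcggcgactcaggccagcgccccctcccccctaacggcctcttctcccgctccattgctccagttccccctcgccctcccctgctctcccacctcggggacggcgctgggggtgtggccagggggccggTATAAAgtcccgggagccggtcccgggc
Igfbp5, chr1:72874866-72875115, minus strand: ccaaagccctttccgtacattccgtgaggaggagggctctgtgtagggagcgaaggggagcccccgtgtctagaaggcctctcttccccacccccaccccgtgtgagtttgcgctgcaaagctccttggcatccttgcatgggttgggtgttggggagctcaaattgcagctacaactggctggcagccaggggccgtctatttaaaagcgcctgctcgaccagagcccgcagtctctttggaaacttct
Igf1, chr10:87860861-87861110, plus strand: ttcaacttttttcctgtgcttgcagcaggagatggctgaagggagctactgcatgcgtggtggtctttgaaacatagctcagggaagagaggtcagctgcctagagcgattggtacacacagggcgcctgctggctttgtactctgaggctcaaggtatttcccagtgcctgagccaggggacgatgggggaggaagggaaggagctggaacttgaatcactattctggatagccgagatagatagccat

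The 3 stretches shared neither of these motifs: *Igfbp2* held 3 GC boxes, *Igfbp4* a TATAAA beginning 28 bases before its start, and *Igfbp5* neither. The 250 bases before the other annotated start of *Igfbp2* held 0 GC boxes. Only these exact letters were searched, so related sequences such as other AT-rich stretches were not counted. Over the full windows of 300 bases, from 250 before to 50 after a start, 9 of the 10 genes were matched by symbol with 13 windows. GC boxes occurred in 7 of these 13 and in 35.7% of all 32851 windows, and TATAAA in 1 of 13 and in 8.32% of all. The motif of STAT dimers, TTCNNNGAA, which reads the same on both strands, was in none of the 13 windows and in 8.30% of all. The FoxO motif GTAAACA, searched on both strands, was also in none of the 13 and in 3.65% of all.

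Of the rest of the binding protein family, *Igfbp7*, a relative with low affinity for IGFs, was by far the most abundant, with 600 to 660 FPKM, and ranked 37 among all genes. It was 29.9 to 51.5 times as high as *Igfbp5* per length and did not follow it, since its own range was 1.10-fold (log2 fold change 0.082, SE 0.10, adjusted p = 0.868). Both of its mutant libraries lay above both control libraries, as in 18.2% of all genes tested. *Igfbp3*, the main carrier of IGFs in serum, had 38 and 28 mutant against 50 and 22 control reads. *Igfbp1* had no reads, and *Igfbp6* had 10 reads in mutant replicate 1 and none elsewhere. Of 14 other genes of the insulin, IGF and binding protein families, 7 were tested, with 5 higher and 2 lower in mutant lenses and none called. In 2 of the 7, *Igfbp7* and *Igf2bp1*, both mutant libraries lay above both control libraries. The 7 tested genes included *Igf2bp2*, an RNA-binding protein named for its *Igf2* target, at 6.30 to 7.76 FPKM, and *Igf2bp1*, with 1.01 and 1.17 mutant against 0.914 and 0.728 control FPKM.

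Among genes that release or restrain the ligands outside the cell, 6 of 8 were tested, 3 higher and 3 lower and none called. *Htra1*, a secreted protease that cleaves binding proteins, had 44.7 and 47.3 FPKM in mutant libraries and 56.2 and 49.0 FPKM in control libraries (log2 fold change -0.19, SE 0.10, adjusted p = 0.810). *Ctsd*, a lysosomal protease, had 65.5 and 67.2 mutant against 58.6 and 59.8 control FPKM (log2 fold change 0.16, SE 0.082, adjusted p = 0.810). Both had groups that did not overlap, as had *Mmp2*, a matrix metalloprotease with 3 and 12 mutant against 13 and 26 control reads (log2 fold change -0.93, SE 0.54, adjusted p = 0.810). These are 3 of the 6 genes tested, beside 36.6% of all genes tested. Of the receptor adaptors and brakes, 2 of 10 tested genes were higher and 8 lower in mutant lenses, at a median log2 fold change of -0.083, and none was called. Over all genes tested 50.7% were higher, and the median was 0.0041. *Ptpn11*, the phosphatase SHP2 of receptor tyrosine kinase signalling, had 6.45 and 8.32 mutant against 9.46 and 9.02 control FPKM (log2 fold change -0.33, SE 0.15, adjusted p = 0.809). *Shc1*, an adaptor to the Ras pathway, had 57.6 and 59.7 mutant against 50.3 and 54.7 control FPKM, and *Grb2*, which binds it, had 9.41 to 11.5 FPKM over all libraries.

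Downstream, 17 of the 21 PI3K, Akt and FoxO genes were lower and 4 higher in mutant lenses, at a median log2 fold change of -0.064 against 0.0041 over all genes tested, of which 50.7% were higher, and none was called. An unadjusted p under 0.05 was found for 2 of the 21, beside 6.31% of all genes tested. They were *Foxo3*, a transcription factor that Akt restrains, and *Rheb*, the GTPase that activates mTORC1. *Foxo3* had 2.13 and 2.42 mutant against 3.08 and 2.91 control FPKM (log2 fold change -0.38, SE 0.13, adjusted p = 0.769). *Rheb* had 4.76 and 4.73 mutant against 3.62 and 3.91 control FPKM (log2 fold change 0.33, SE 0.11, adjusted p = 0.769). *Akt1*, the most abundant gene of the list, lay between 21.1 and 23.0 FPKM, and *Mtor* between 6.15 and 7.10 FPKM.

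**Figure D4:**
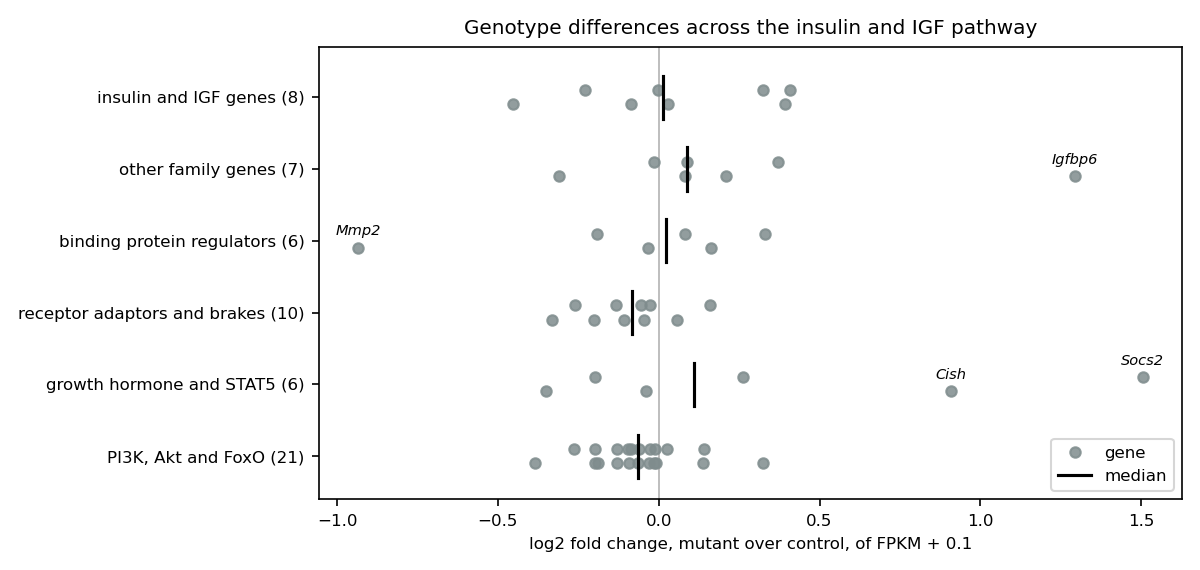
Log2 fold change of FPKM + 0.1 (horizontal axis, mutant over control) of the tested genes of the insulin and IGF group and of 5 related gene lists, with the number tested in brackets. Each point is a gene and each black line the median of its list. The 8 insulin and IGF genes lie between -0.45 and 0.41, and *Socs2* (1.51) and *Cish* (0.91) lie farthest to the right in the growth hormone and STAT5 list.

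The growth hormone and STAT5 axis, through which *Igf1* is induced in other tissues, held the largest difference of these lists. All 6 genes were tested, 3 higher and 3 lower, and none was called in limma's test. The 3 that were higher, *Socs2*, *Cish* and *Ghr*, had both mutant libraries above both control libraries, as had 18.2% of all genes tested. *Socs2*, a feedback inhibitor that STAT5 induces, had 62 and 66 mutant against 16 and 7 control reads (log2 fold change 1.51, SE 0.42, adjusted p = 0.702), and voom on the recovered reads gave it a log2 fold change of 2.54 and an adjusted p of 0.034. *Cish*, another STAT5-induced inhibitor of the same family, had 25 and 19 mutant against 10 and 3 control reads (log2 fold change 0.91, SE 0.55, adjusted p = 0.810). *Ghr*, the growth hormone receptor, had 20 and 21 mutant and 16 and 13 control reads. The transcription factors themselves were not higher: *Stat5a* had 0.889 and 1.21 mutant against 1.56 and 1.17 control FPKM (adjusted p = 0.810), and *Stat5b* 5.88 and 7.61 against 7.30 and 6.49 FPKM (adjusted p = 0.966). *Igf1*, with 25 mutant and 26 control reads in all, did not share the pattern of *Socs2* and *Cish*.

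The annotated start of *Cish* is shown because its window held the TTCNNNGAA motif, with copies beginning at bases 1 and 12 counted from the start. Of all windows, 0.457% held 2 or more copies. Capitals mark the motif in the first 20 bases of RefSeq's GRCm38.p6, and a match of letters is not evidence of binding. *Socs2* had no window in the table and was not scanned.

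Cish, chr9:107296659-107296678, plus strand: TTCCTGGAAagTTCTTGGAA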

How the data were processed

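The authors' provider aligned reads with HISAT2 (2.0.5), counted them per gene with featureCounts (1.5.0-p3) and computed the FPKM of the deposited table. The submitters' processing notes name the build mm39, strand and multi-mapping settings are not given in the sources used here, and 0 per-sample columns were left unused. Per-gene lengths and positions are those of the table. FPKM times length gave whole multiples of a single step for 100% of values above 0 (tolerance 0.01), so reads were recovered by division. They sum to 18561682 to 18878768 per library, and the Poisson and Clopper-Pearson intervals (95%) from them cover counting error only. A count of 0 allows up to 3 reads, a one-sided limit.

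Libraries were scaled by median ratio, but the factors were 1.01 each, so this step left the libraries as they stood to each other. The size term in the deposited FPKM was not the total of recovered reads. It was 0.944 and 1.05 times that total in mutant and 1.05 and 0.987 times in control replicates 1 and 2. The test was limma (3.58.1, R 4.3.3; lmFit, eBayes with a trend, Benjamini-Hochberg adjustment) on log2(FPKM + 0.1), for genes whose mean FPKM reached 0.1. SE and all adjusted p-values not credited to voom come from this fit. This scale understates fold changes of low genes. The study used DESeq2, on counts not analysed here. Whether the libraries are separate sets of animals follows only from their labels, so p-values measure the spread between pools. On simulated reads with known changes, the limma test on log2 FPKM missed many changed genes, more often than voom did, and the share of unchanged genes among its calls was above the adjusted threshold. Few calls therefore do not show that few genes changed. The genes, lists and tests were chosen with earlier results of these data known. Outside the 10 genes, each list is described by its 2 genes with the smallest p and its 2 most abundant, and by genes fixed by name (*Pdgfrb*, *Ghr*, *Stat5a*, *Stat5b*, *Socs2*, *Igfbp3*, *Igfbp7*, *Ins1*, *Ins2*). For *Igf1*, the 3 genes nearest in profile are also named. Alternatives were other pseudocounts, filters, scalings, no trend, voom on the recovered reads, the replicate block, an *Xist* covariate and each library left out. *Insrr*, *Igfbp1*, *Igf1os*, *Igf2os*, *Gm49394*, *Mir483*, *Ptprc*, *Lum*, *Dcn*, *Lim2*, *Hba-a2*, *Mmp2* and *Airn* were named after their values were seen. No protein sequences were used here.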

Additional observations from a re-analysis of the deposited data

How the results depend on the processing

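Across 17 alternatives per tested gene, none of the insulin and IGF genes reached an adjusted p under 0.05 (lowest 0.335, *Irs1* in voom without a filter, an alternative chosen after seeing the data). Genes called over the whole table numbered 6, and 2 with a pseudocount of 1 or 0.01, a mean FPKM of at least 1, no trend or the replicate block. They numbered 1 without a filter or with the *Xist* covariate, 14 in voom, 37 in voom without a filter, and 0 with any library left out, where a lone library is assumed to vary like the others. Insulin and IGF genes at an unadjusted p under 0.05 numbered 0, but 2 in voom with or without the filter, 1 with the *Xist* covariate, and 0 to 1 with a library left out. Of 138 log2 fold changes recomputed, 9 changed sign: *Igf2r*, near 0, in voom (0.000493), in voom without a filter (0.000947) and with quantile normalization (0.000445), and those with a library left out. These ranged from -0.166 to 0.164 for *Igf2r*, -0.196 to 0.0232 for *Insr*, -0.224 to 0.283 for *Irs2* and -0.00413 to 0.65 for *Igfbp2*. The cause was not tested. The replicate numbers only name libraries: deviations of same-numbered libraries correlated at -0.00512 over 15997 genes, and the replicate block changed no call of these genes. *Igf1* and *Igf2* could be tested only without a filter. They rest on 51 and 8 reads in all.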

Other observations

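Over the 4 libraries, 10798 tested genes with at least 20 reads in each library were compared with *Igf1* by the Euclidean distance between log2(FPKM + 0.1) values, each centred on its own mean. The nearest were *Rasl12* (distance 0.0317), *AI429214* (0.0362) and *Tpm3-rs7* (0.0418). *Rasl12* had 0.675 and 0.832 FPKM in mutant and 0.916 and 0.578 FPKM in control replicates 1 and 2. Within double the distance of *Tpm3-rs7* lay 7 genes. The pseudocount flattens the profile of *Igf1*, whose levels lie near 0.1 FPKM, and 4 libraries define such a likeness only loosely.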
